A study of Mus musculus with 753 samples.

Results

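The replication-dependent histone genes encode the linker histone H1 and the core histones H2A, H2B, H3 and H4 that package newly copied DNA. They were chosen by symbol alone: names beginning H2ac, H2bc, H3c or H4c with a number and H1f1 to H1f5 in the second sequencing batch, and the matching older names beginning Hist in the first. This rule named 62 of the 19547 genes with reads in both batches: 5 H1, 16 H2A, 17 H2B, 12 H3 and 12 H4 genes. Of these, 52 lie on chromosome 13 and 10 on chromosome 3. After a filter on low values, 55 of the 62 were tested among 11197 genes (4 H1, 14 H2A, 16 H2B, 9 H3 and 12 H4), and the 7 that did not reach the filter were H1f1, H2ac1, H2ac21, H2bc18, H3c3, H3c7 and H3c8.

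The cells were keratinocytes sorted from the back skin epidermis of adult mice labelled Gata6EFGPCreERT2 (Gata6EGFPCreERT2 in the methods) and carrying Rosa26-fl/STOP/fl-tdTomato43, with Cre and tdTomato each +/-, all of which received topical 4-hydroxytamoxifen. In this line the Gata6 promoter drives Cre, so tdTomato marks cells in which Gata6 was on, normally differentiated cells of the sebaceous duct and upper follicle, together with their progeny. Such cells are called lin+ and cells without tdTomato lin-. Both were taken from wounds at days 6, 9 and 11 and from unwounded skin (day 0), and single cells were read by Smart-seq2, a method that covers whole transcripts and carries no molecular identifiers. Cells had been labelled for CD45 and the integrin Itga6 and mixed with epidermal cells of CAGGS eGFP mice, which were sorted away by their GFP. By the methods, each replicate of days 9 and 11 was 1 mouse, a day 6 replicate pooled several, and unwounded skin came from mice that also gave day 9 and day 11 wounds. The 684 cells formed 14 sets of 1 lineage, day and replicate. Days 0, 9 and 11 had 2 replicates, 1 per sequencing batch, and day 6 was used as 1 set per lineage in the second batch. The methods describe replicates at day 6 as well, but the labels do not say which cells belong to which, so day 6 is not a single replicate by design and its spread between replicates cannot be given here. Days 9 and 11 together are called late wounds. p values describe the spread between these sets.

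Cells make these histones mainly while they copy their DNA. Their mRNAs end after a short stem-loop in place of a poly(A) tail, and the stem-loop binding protein Slbp guides their processing, export and decay. Some of the genes also give polyadenylated transcripts, mostly in cells that have left the cycle. Smart-seq2 starts cDNA synthesis from an oligo(dT) primer, so it is aimed at polyadenylated RNA.

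The stem-loop was searched for over the whole length of each coding transcript, on its own strand, in the GENCODE models of GRCm38. It was sought in 2 forms of 16 bases that differ in 1 base pair of the stem and cannot match at the same place. The forms are the capitals of H1f2 and of H4c3 shown here, with any base allowed at the end of the loop. It was found in 38 of the 62 histone genes and in 45 of all 21877 coding genes with a model (0.206%). The first form was in 30 genes and the second in 8, all of them H4 genes. In the histone genes with a match, it began 21 to 58 bases after the stop codon. In 14 histone genes the model held fewer than 16 bases there. Examples are shown for genes whose levels are described here, with the stem-loop in capitals.
H1f2 (chromosome 13): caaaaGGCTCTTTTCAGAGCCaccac
H2ac23 (chromosome 13): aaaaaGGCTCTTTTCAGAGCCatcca
H2ac18 (chromosome 3): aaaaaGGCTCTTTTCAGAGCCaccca
H2bc8 (chromosome 13): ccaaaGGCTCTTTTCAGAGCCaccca
H3c4 (chromosome 13): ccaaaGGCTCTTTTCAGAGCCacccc
H4c3 (chromosome 13): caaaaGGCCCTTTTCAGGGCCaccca
H4c4 (chromosome 13): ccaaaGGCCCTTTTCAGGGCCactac
H2bc4, the member with the largest share of H2B reads in each batch, had 742 bases after the stop codon in its model and neither form among them. The second-batch gene lengths, against which reads had been scaled, were multiples of 3 in 45 of the 62 genes. A coding sequence without untranslated ends has such a length, but so can a longer one. Among the 45 were H2ac6 at 2493 bases, with 2058 bases after the stop codon in its model, and H2bc23 at 2121 bases. The share over all genes is not given here, so this count does not show which lengths were coding sequence only.

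Promoters, taken as 250 bases before to 50 after the start from RefSeq (GRCm38.p6), matched 57 of the 62 genes and were searched on both strands for 3 motifs. Each motif was sought on its own, and matches of different motifs can share bases. CCAAT was in 49 of 57 histone promoters, against 37.4% of all 32851. It was in all 46 promoters of the H1, H2A, H2B and H3 genes and in 3 of 11 H4 promoters. TATAAA was in 34 of 57, against 13.6% of all, and the octamer ATTTGCAT in 12 of 57, against 1.74%. The octamer matches were in 6 H2A and 6 H2B promoters. Some neighbouring H2A and H2B genes, such as H2ac11 and H2bc11, lie less than 250 bases apart. Their windows can share bases, so 1 site can count for 2 genes, and these counts are not of separate sites. The promoters of H2ac23 (chr13:21810117-21810416, + strand) and H4c4 (chr13:23581318-23581617, + strand) are shown because H2ac23 led the H2A reads and H4c4 led the H4 reads of the first batch and was low in the second, with motif matches on either strand in capitals.
H2ac23: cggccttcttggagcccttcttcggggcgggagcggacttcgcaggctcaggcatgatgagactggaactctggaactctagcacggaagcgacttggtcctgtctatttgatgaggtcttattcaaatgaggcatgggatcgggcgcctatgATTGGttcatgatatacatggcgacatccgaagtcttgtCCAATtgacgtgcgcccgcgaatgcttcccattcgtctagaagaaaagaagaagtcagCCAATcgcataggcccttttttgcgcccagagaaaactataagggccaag
H4c4: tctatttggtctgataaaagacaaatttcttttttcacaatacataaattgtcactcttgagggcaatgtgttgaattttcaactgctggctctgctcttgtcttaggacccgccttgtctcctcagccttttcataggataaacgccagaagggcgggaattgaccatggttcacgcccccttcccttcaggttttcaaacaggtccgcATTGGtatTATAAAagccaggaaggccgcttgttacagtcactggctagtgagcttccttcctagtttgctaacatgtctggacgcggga
The H2ac24 promoter (chr13:21833426-21833725, - strand) shared an unbroken run of 200 bases with that of H2ac23, beginning at base 101 of the H2ac23 window. A motif match describes these letters only.

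Sets held 26 to 93 cells, with a median of 1806779 to 5967310 reads per cell, and 10 cells had under 100000 reads. The study removed cells with fewer than 200 genes and kept 684, the number annotated in the files. Of these, 4 had fewer than 200 genes by the values used here. Keratinocyte markers (Krt5, Krt14, Krt15, Krt10 and Krt79) summed to 12730 to 47695 CPM (reads scaled to the total of a cell) in every set. Langerhans cell Cd207 was at 0 in all sets, and the 4 leukocyte markers summed to at most 1.55 CPM. Cd74 reached 10 CPM in 101 cells, and the 3 melanocyte markers reached a sum of 5453 CPM in 1 late set.

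H2A genes took most histone reads. The level of a set is the mean CPM of its cells. H2A made up 20.5% to 72.3% of the histone sum of a set, H2B 10.1% to 50.5%, H1 3.97% to 17.7%, H4 0.80% to 21.4% and H3 0.70% to 8.56%. H2A was the largest class in 12 of the 14 sets, and H2B was the largest in both lineages at day 11 of the first batch.

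The sum over all 62 genes was 5784 (day 9) and 798 (day 11) CPM in the late lin+ sets of the first batch and 1499 and 1138 in those of the second, against 3361 and 909 in the day 0 sets of those batches. The day 6 lin+ set was at 806 CPM. In lin- cells the same sums were 11039 and 568 CPM in the first batch and 1568 and 1988 in the second, against 3254 and 365 at day 0. The day 6 lin- set was at 1412 CPM. The day 9 sets of the first batch stood above all others in both lineages, and the day 11 sets of that batch were lower than its day 0 sets. The late and day 0 ranges overlapped in each lineage.

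**Figure D1:**
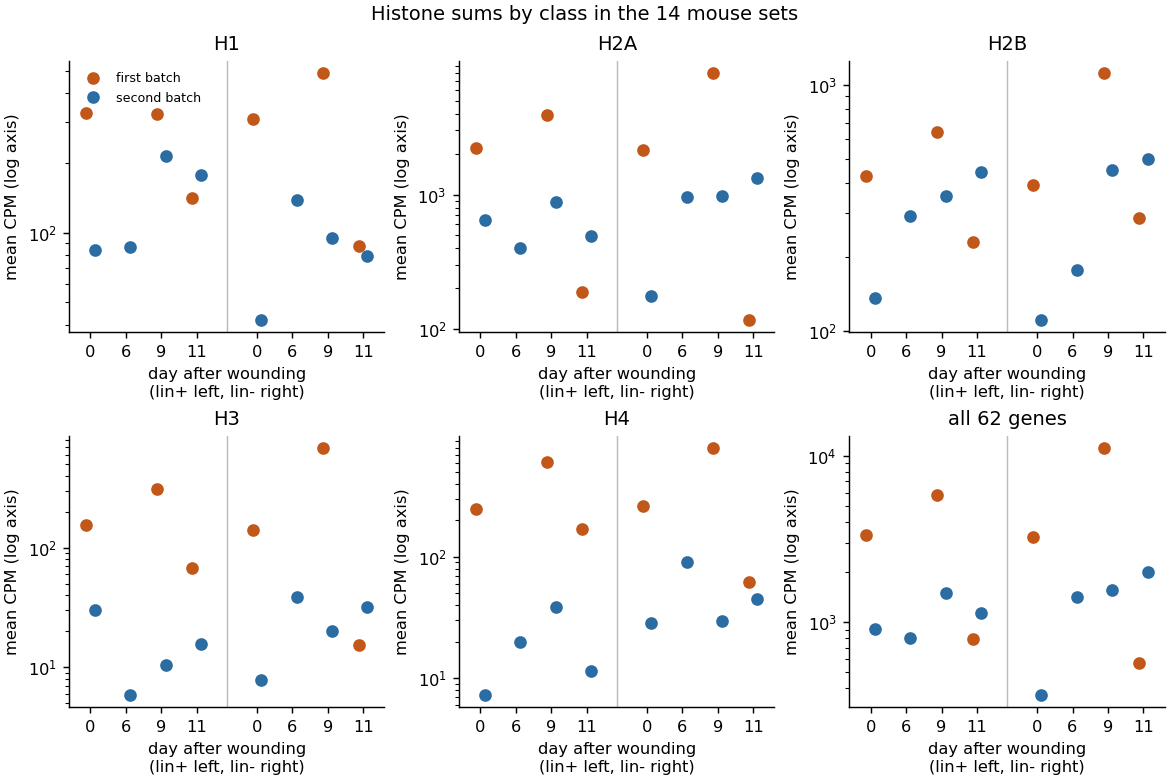
Mean histone CPM of each set by class (log axis), by day after wounding, with lin+ sets left and lin- sets right of the line and the batch in colour. The first-batch day 9 sets are the highest in the panel of all 62 genes (5784 CPM in lin+ and 11039 in lin-), and in the H3 and H4 panels most first-batch sets lie above the second-batch sets, with overlap (first-batch minimum 15.3 and second-batch maximum 38.6 CPM for H3, 61.9 and 91.5 CPM for H4).

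The batches differed by class. Averaged over sets, H2B was at 515 CPM in the first batch and 307 in the second, a ratio of 1.68, while H1 had a ratio of 2.44 and H2A of 3.75. H3 was at 227 CPM in the first batch and 20.1 in the second, a ratio of 11.3, and H4 at 357 and 33.9, a ratio of 10.5. Single genes spread further. H2bc4 was at 245 and 235 CPM, whereas H4c4 was at 203 and 5.13. H4c4 made up 56.9% of H4 reads in the first batch, and H4c3 was the leading H4 gene of the second with 24.2%. Batch, replicate mice and the gene models used for counting changed together and cannot be told apart, so the tests below carry the batch as a term.

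Per kilobase of gene over the second-batch sets, the highest member was H2ac24 at 623 CPM per kilobase, followed by H2ac23 at 479, H2bc4 at 323 and H2ac11 at 116. Before division by length H2ac24 and H2ac23 were level, at 245 and 246 CPM. Their order comes from gene lengths of 393 and 514 bases. Among H1 genes H1f2 was at 48.1 CPM per kilobase and H1f5 at 40.2, with H1f4 at 4.80. Other H2B genes were far below H2bc4: H2bc8 was at 25.4 and H2bc14 at 23.8. The leading H4 genes were H4c3 at 26.3, H4c4 at 16.4 and H4c18 at 14.2, and the leading H3 genes H3c13 at 13.4, H3c6 at 4.42 and H3c4 at 4.21. Most genes of 1 core histone class encode nearly the same protein, and reads of near-identical copies cannot be assigned with certainty. H2ac23 and H2ac24 lay within 5% of each other in 54.5% of first-batch cells and 53.8% of second-batch cells with at least 10 reads, and H2ac18 and H2ac19 in 30.5% and 28.8%. H2ac23 and H2ac24 were the only pair within a class that agreed this closely in most such cells, in each batch. The values of single H2A genes are therefore not independent of each other.

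Wound healing was examined first by setting late wounds against unwounded skin. In lin+ cells no histone gene passed (limma on set means, adjusted p under 0.05, 0 of 55), where 0.205% of all genes tested did. edgeR on reads summed per set also called 0 of 55, against 0.116% of all genes, and 1 histone gene, H3c4, had an unadjusted p under 0.05 in limma, against 11.9% of all genes. In lin- cells 0 of 55 passed in limma, against 0.295% of all genes, and 0 in edgeR, against 0.0357%. Here H2bc4 alone had an unadjusted p under 0.05 in limma, against 15.0% of all genes. Log2 fold changes over the 55 genes had a median of 0.43 in lin+ cells (0.18 over all genes) and 0.76 in lin- cells (0.14 over all genes). They were above 0 for 33 of 55 genes in lin+ cells, against 56.4% of all genes, and for 43 of 55 in lin- cells, against 54.3%. These counts rested on single mouse sets. Without the first-batch day 9 sets, where fewer genes passed the filter, they were 13 of 36 in lin+ and 18 of 36 in lin- cells, and without the second-batch day 0 sets 25 of 55 and 26 of 55. In edgeR they were 46 of 55 and 44 of 55. The 2 lineages' comparisons used separate cells, and the day 0 sets of each are its own. The lin+ and lin- sets of a day and replicate share their mice, however, and the fit of days does not carry this pairing. The 2 comparisons are therefore not independent.

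Among H2B genes H2bc4 carried the class, with 47.6% of its reads in the first batch and 76.6% in the second. H2bc4 was at 281 and 269 CPM in lin+ cells at day 9 and at 129.7 and 366 at day 11 (first batch before second), against 232 and 96.2 at day 0. In lin- cells it was at 465 and 329 at day 9 and at 188 and 391 at day 11, against 173 and 77.0 at day 0. All 4 late lin- sets were thus above both day 0 lin- sets, and in lin+ cells the first-batch day 11 set fell among the day 0 values. The log2 fold change of H2bc4 was 1.49 ± 0.54 in lin- cells (SE, adjusted p = 0.227, 4 of 4 within-batch pairs higher) and 0.71 ± 0.54 in lin+ cells (adjusted p = 0.631, 3 of 4). Over 17 alternative settings the lin- value ranged from 0.65 to 2.31, with adjusted p from 0.0658 to 0.605. The difference of the 2 late effects, lin+ minus lin-, was -0.78 ± 0.76 (adjusted p = 0.81), or ± 0.42 with the mouse set as a block (adjusted p = 0.568). For the H2B sum the log2 difference was 1.31 ± 0.72 in lin- and 0.69 ± 0.72 in lin+ cells (SE, 7 residual degrees of freedom). Without the first-batch day 0 sets the lin- difference was 2.15, and without the second-batch day 0 sets it was 0.45.

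H2bc14, another H2B gene, was at one end of the fold changes in both lineages at a low level. It was at 5.36 and 5.90 CPM at day 9 and at 4.62 and 3.09 at day 11 in lin+ cells, against 2.27 and 0.027 at day 0. In lin- cells it was at 15.1 and 35.2 at day 9 and 1.57 and 18.7 at day 11, against 9.12 and 0.037. Its log2 fold change was 1.62 ± 1.30 in lin+ cells (adjusted p = 0.649) and 2.02 ± 1.30 in lin- cells (adjusted p = 0.49).

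Among H2A genes H2ac23 took the largest share of reads, with 24.8% in the first batch and 33.5% in the second. H2ac23 was at 1052 and 311 CPM at day 9 and at 22.4 and 151 at day 11 in lin+ cells, against 477 and 229.8 at day 0. In lin- cells it was at 1989 and 354 at day 9 and at 27.0 and 483 at day 11, against 528 and 40.6. For this gene the first-batch day 9 sets were the highest and the first-batch day 11 sets the lowest of each lineage. Its log2 fold change was -0.85 ± 1.53 in lin+ cells (adjusted p = 0.865) and 1.08 ± 1.53 in lin- cells (adjusted p = 0.778). Without the replicate 1 mouse set of day 11 both H2ac23 and H2ac24 passed in lin- cells, each at 2.64 ± 0.50 with an adjusted p of 0.049, and over the 17 settings the adjusted p of H2ac23 ranged up to 0.995. H2ac8 (log2 fold change -1.31 ± 1.67, adjusted p = 0.8) stood at the low end in lin+ cells.

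H2ac18 and H2ac19, the nearly identical pair on chromosome 3, ran the other way in lin- cells. H2ac18 was at 134 and 21.9 CPM at day 9 and at 6.57 and 21.7 at day 11 in lin- cells, against 157 and 33.7 at day 0, so each late set was below the day 0 set of its batch. The log2 fold change was -1.46 ± 0.91 (adjusted p = 0.472). In lin+ cells H2ac18 was at 112 and 50.6 at day 9 and at 43.0 and 45.5 at day 11, against 129 and 33.2 at day 0, with a log2 fold change of -0.19 ± 0.91 (adjusted p = 0.962).

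**Figure D2:**
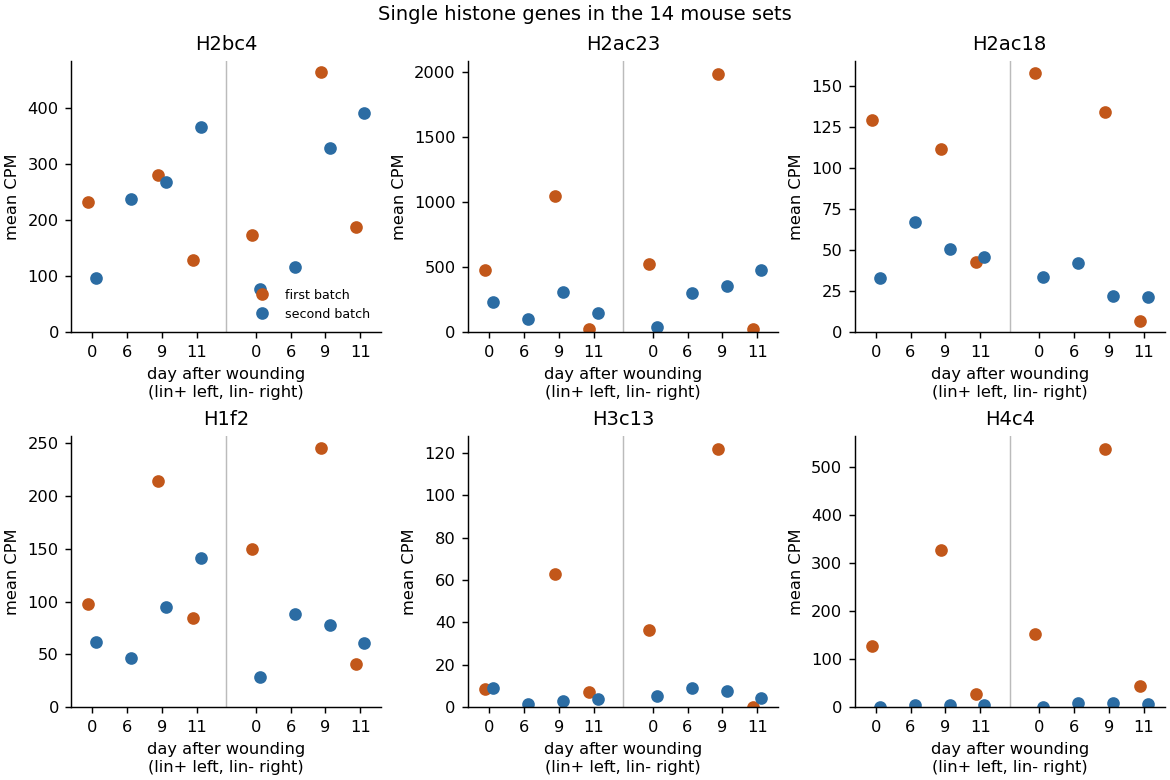
Mean CPM of 6 histone genes in the 14 sets (linear axes, each with its own range), by day after wounding, with lin+ sets left and lin- sets right of the line and the batch in colour. H2bc4 has similar levels in the 2 batches and its 4 late lin- sets (188 to 465 CPM) lie above both day 0 lin- sets (173 and 77.0), while H4c4 is near 0 in every second-batch set.

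Among the linker histones H1f2 led. It was at 214 and 94.7 CPM at day 9 and at 85.0 and 141 at day 11 in lin+ cells, against 97.9 and 62.1 at day 0. In lin- cells it was at 246 and 78.1 at day 9 and at 41.0 and 60.9 at day 11, against 150.2 and 29.0. The ranges overlapped in both lineages, and the log2 fold changes were 0.67 ± 0.69 in lin+ (adjusted p = 0.731) and 0.33 ± 0.69 in lin- cells (adjusted p = 0.856). H1f5 ranged from 0.403 to 123 CPM and H1f4 from 0.007 to 93.8 over the 14 sets.

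H3 and H4 genes were low in the second batch. H3c4 was at 2.86 and 0.184 CPM at day 9 and at 15.1 and 1.17 at day 11 in lin+ cells, against 53.2 and 5.71 at day 0, below its day 0 set in 4 of 4 pairs. In lin- cells it was at 24.5 and 0.12 at day 9 and at 7.79 and 0.47 at day 11, against 3.69 and 0 at day 0, above it in 4 of 4, of which 2 pairs compare with a day 0 set at 0. The log2 fold changes were -2.42 ± 1.06 in lin+ (adjusted p = 0.384) and 1.02 ± 1.06 in lin- cells (adjusted p = 0.687). H4c4 was at 328 and 5.40 at day 9 and 28.4 and 4.65 at day 11 in lin+ cells, against 128 and 0.15 at day 0, with a log2 fold change of 0.99 ± 1.21 (adjusted p = 0.787). At the ends of the fold changes stood H4c11 in lin+ cells at 1.61 ± 1.08 (adjusted p = 0.579) and, in lin- cells, H4c9 at 1.68 ± 1.39 (adjusted p = 0.603) and H4c3 at -1.58 ± 1.30 (adjusted p = 0.6).

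Few histone genes moved 1 way in all 4 within-batch pairs of a late and a day 0 set. In lin+ cells 4 of 55 were higher in 4 of 4 pairs (H2bc14, H4c2, H4c11 and H4c14), against 17.9% of all genes, and only H3c4 was lower, against 14.0%. In lin- cells H2bc4 and H3c4 were higher in 4 of 4, against 15.7% of all genes, and H2ac18, H2ac19, H4c1 and H4c3 lower, against 15.0%. These shares were below those of all genes, and no direction is read from them. Whether the late effect differed between the lineages was tested as an interaction: 0 of 55 genes passed in limma (0.00893% of all genes) and 0 in edgeR (0.0893%), and H3c4 alone had an unadjusted p under 0.05 (9.14% of all genes), at -3.44 ± 1.50 with an adjusted p of 0.53. This fit carries the batch but not the pairing of lin+ and lin- cells within a mouse set. With the mouse set as a block, an alternative added after seeing the data, 0 of 55 passed in limma (0.00893% of all genes) and 4 had an unadjusted p under 0.05 (10.1% of all genes). The 4 were H2ac11 at -2.21 ± 0.77 (adjusted p = 0.442), H2ac23 at -1.92 ± 0.74 and H2ac24 at -1.92 ± 0.74 (adjusted p = 0.468 for each), which share reads, and H2ac8 at -2.19 ± 0.89 (adjusted p = 0.476). H3c4 was then at -3.44 ± 1.54 (adjusted p = 0.501).

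Day 6 wounds were set against day 0. In lin+ cells 0 of 55 passed in limma (0.00893% of all genes) and 0 in edgeR (0.0625%), with 0 at an unadjusted p under 0.05 (6.09%). In lin- cells 0 passed in limma (0.0804%) and 0 in edgeR (0.0179%), with 0 at an unadjusted p under 0.05 in limma (8.15%) and 1 in edgeR (5.64%). The median log2 fold change was -0.19 in lin+ cells, against 0.15 over all genes, and 0.81 in lin- cells, against 0.20 over all genes. In lin- cells 52 of the 55 were higher in the day 6 set than in the day 0 set of its batch, against 56.4% of all genes. This is 1 pair of sets, and its day 0 set had the lowest histone sum of all 14 sets, with a median cell at 0.34 CPM. Near-identical copies among the 55 genes share reads, so the count is not one of 55 independent genes. H1f1, encoding the linker histone H1.1, was listed above 1 CPM only in the 2 day 6 sets, where it came from 2 cells, and passed in the 4 day 6 comparisons when low genes were not left out.

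Late wounds were then set against day 6. In lin+ cells 0 of 55 passed in limma (0.0179% of all genes) and 0 in edgeR (0.0268%), with 0 at an unadjusted p under 0.05 (3.47%). In lin- cells 0 passed in limma (0.116%) and 0 in edgeR (0.0179%), and 2 had an unadjusted p under 0.05 (5.49%): H2ac20 at -4.13 ± 1.68 (adjusted p = 0.79) and H4c1 at -3.53 ± 1.54 (adjusted p = 0.847). The median log2 fold change was 0.72 in lin+ cells, against 0.05 over all genes, and -0.23 in lin- cells, against -0.05. Day 6 has 1 set per lineage, which is taken to vary like the others.

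The lineages were compared within each mouse set, since lin+ and lin- cells of a set share their mice. In wounds 0 of 55 histone genes passed in limma (0.196% of all genes) and 0 in edgeR (0.0179%). An unadjusted p under 0.05 was reached by 8 of 55 in limma, against 7.50% of all genes, and by 4 in edgeR, against 4.01%. All 8 in limma were H2A genes. The limma count was 1 without the day 6 sets, 1 of 55 without the second-batch day 11 sets, 3 of 36 without the first-batch day 9 sets, 5 without the second-batch day 9 sets and 0 without the mouse set block. Of the 55 genes, 11 were lower in lin+ cells in 5 of 5 mouse sets, against 4.84% of all genes, and 0 were higher in 5 of 5, against 4.32%. The 11 were H2ac4, H2ac6, H2ac8, H2ac11, H2ac12, H2ac22, H2ac23, H2ac24, H2bc11, H2bc12 and H4c4. As near-identical copies share reads, the 8 H2A genes among them are not 8 separate observations.

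H2ac8 had the lowest adjusted p of the 55 in wounds. It was at 7.80 CPM in lin+ cells at day 6, at 191 and 15.1 at day 9 and at 2.55 and 13.3 at day 11, against 82.9, 634, 15.6, 7.42 and 46.0 in lin- cells of the same mouse sets. The log2 difference was -1.60 ± 0.51 (adjusted p = 0.422). H2ac23 was at 102 in lin+ cells at day 6, against 299.9 in lin- cells, and it was lower in lin+ cells in each of the sets at days 9 and 11 given above, with a log2 difference of -0.92 ± 0.37 (adjusted p = 0.618). H2ac18 (1.03 ± 0.43, adjusted p = 0.632) and H2ac19 (1.00 ± 0.43, adjusted p = 0.651) were instead higher in lin+ cells in 4 of 5 mouse sets. Summed by class, the log2 difference was -0.64 ± 0.44 for H2A, -0.69 ± 0.72 for H3, -0.51 ± 0.66 for H4, -0.18 ± 0.22 for H2B and 0.35 ± 0.39 for H1 (SE, 5 residual degrees of freedom). With the median over the cells of a set in place of the mean, the H2A difference turned to 0.68 and that of H1 was 1.69. The sum over all 62 genes was lower in lin+ cells in 4 of 5 mouse sets, at -0.42 ± 0.30.

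In unwounded skin 0 of 55 passed in limma (0.196% of all genes) and 0 in edgeR (0.152%), and H3c4 alone had an unadjusted p under 0.05 (14.9% of all genes), at 3.14 ± 1.30 with an adjusted p of 0.291. The median log2 difference of the 55 was 0.37 in unwounded skin, against -0.04 over all genes, and -0.27 in wounds, against -0.03. The H2A sum was higher in lin+ cells in both unwounded sets, by 0.96 ± 0.70 on the log2 scale. It was 0.038 without the second-batch day 0 sets and 1.88 without those of the first batch, and it turned to -0.43 with the median over cells.

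**Figure D3:**
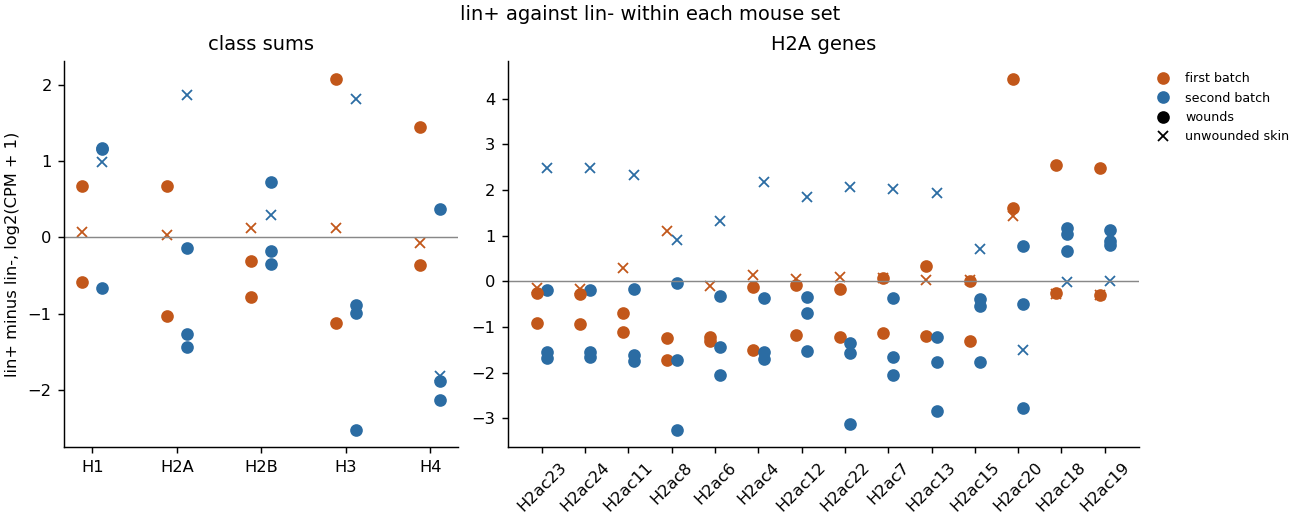
Log2 difference of lin+ minus lin- within each mouse set, on log2(CPM + 1), for class sums (left) and the 14 tested H2A genes (right); circles are the 5 wound sets, crosses the 2 unwounded sets, colours the batches. The first 8 H2A genes, ordered by this outcome, lie below 0 in all 5 wound sets, H2ac7, H2ac13 and H2ac15 are each above 0 in 1 of 5, H2ac20 in 3 of 5, and H2ac18 and H2ac19 in 4 of 5.

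A set mean can rest on few cells, so cells were also counted. A cell was counted when its histone sum reached 100 CPM. In late lin+ sets 95.2% (40 of 42) and 81.8% (36 of 44) of cells did so at day 9 and 84.4% (27 of 32) and 80.9% (38 of 47) at day 11, against 63.8% (30 of 47) and 47.8% (22 of 46) at day 0. All 4 late lin+ sets were above both day 0 sets. The day 6 lin+ set was at 55.9% (52 of 93). In lin- cells the shares were 92.9% and 90.9% at day 9 and 61.5% and 76.6% at day 11, against 61.7% and 39.6% at day 0. The day 6 lin- set was at 49.5% (46 of 93). The first-batch day 11 lin- set was level with its day 0 set, and 3 of 4 pairs were higher. Pooled over cells, the share was 85.5% in late and 55.9% in day 0 lin+ cells (exact 95% binomial intervals 79.1% to 90.5% and 45.2% to 66.2%) and 81.4% and 50.5% in lin- cells (74.1% to 87.4% and 40.1% to 61.0%). These intervals cover counting error only, since the cells of a set share their mice and reads carry no molecular identifiers. After thinning each cell to 500000 reads, which 22 cells did not reach, the mean paired difference was 30.5 percentage points in each lineage, against 29.7 points in lin+ and 29.8 points in lin- cells without thinning. Thinning at random leaves the expected CPM of a cell unchanged, so few cells could cross 100 CPM. It therefore cannot decide what part read depth has in these shares.

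Of the 55 single genes, H2bc4 and H1f2 had higher shares in every late set than in the day 0 set of its batch in both lineages. H2bc4 reached 100 CPM in 40.5% and 50.0% of lin+ cells at day 9 and in 31.3% and 59.6% at day 11, against 17.0% and 21.7% at day 0. In lin- cells it did so in 50.0% and 63.6% at day 9 and in 30.8% and 53.2% at day 11, against 19.2% and 8.33%. For H1f2 the late lin+ shares were 15.6% to 42.9%, against 10.6% and 13.0% at day 0, and the late lin- shares 15.4% to 50.0%, against 14.9% and 4.17%. The late sets did not overlap the day 0 sets for either gene. For H1f2 in lin- cells this rests on 15.4% (4 of 26) at first-batch day 11 against 14.9% (7 of 47) at day 0. The share of all genes without overlap is not given here. By this count 2 of 55 histone genes were higher in every within-batch pair in lin+ cells, against 32.5% of all genes, and 3 of 55 in lin- cells (with H4c8), against 29.4%. H2ac23 shares overlapped, at 12.5% to 50.0% in late and 17.0% and 15.2% in day 0 lin+ cells.

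The share of cells with histone reads moved together with how many genes a cell showed. The median number of genes was 2667 to 3108 in late and 1776 and 2307 in day 0 lin+ sets, and 1943 to 3228 in late and 1795 and 1900 in day 0 lin- sets. Some other lists moved likewise in lin+ cells. The 36 DNA replication genes summed to 100 CPM in 81.0% to 91.5% of late and 51.1% and 65.2% of day 0 lin+ cells. For the 16 histone mRNA transcription and processing genes the shares were 83.3% to 95.5% and 55.3% and 69.6%. Late and day 0 lin+ shares overlapped for the histone chaperone, G1/S cyclin and E2F, and mitosis lists. For mitosis they were 15.6% to 48.9% in late and 10.6% and 19.6% in day 0 sets. In lin- cells the DNA replication share was 57.7% at first-batch day 11, against 59.6% at day 0 of that batch. Histone mRNA transcription and processing shares were 83.0% to 97.7% in late and 61.7% and 58.3% in day 0 lin- sets. For the 12 replacement histone genes, such as H2az1, late shares were 97.6% to 100% in lin+ and 92.3% to 97.9% in lin- sets. Their day 0 shares were 95.74% and 95.65% in lin+ and 87.2% and 85.4% in lin- sets. Late and day 0 lin- shares of the other lists overlapped. The part of gene detection in the histone shares was not tested.

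**Figure D4:**
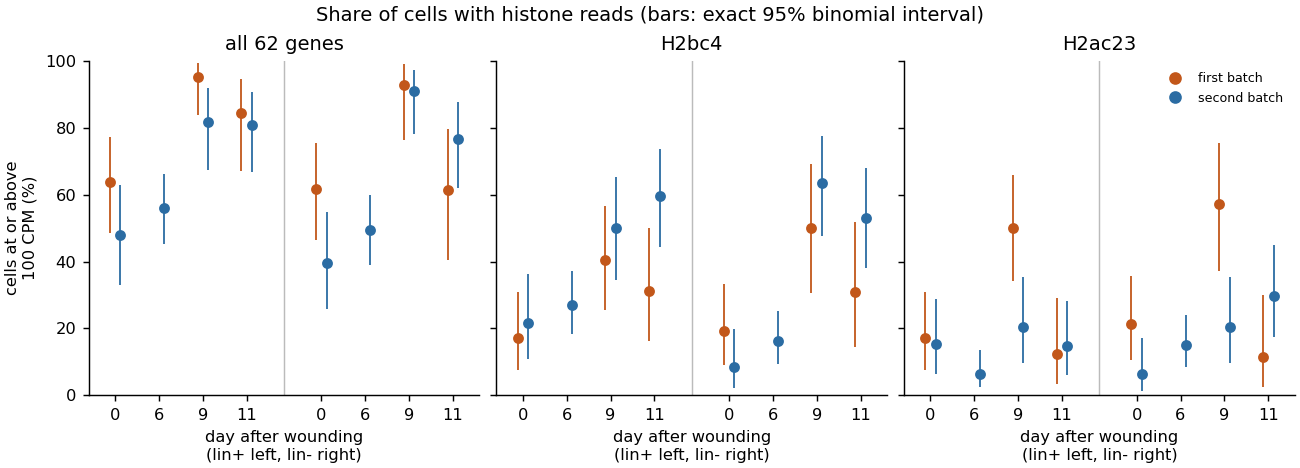
Percent of cells of each set with at least 100 CPM for the sum of all 62 genes, H2bc4 and H2ac23, by day after wounding, with lin+ left and lin- right of each line; bars are exact 95% binomial intervals and colours the batches. For the sum, the 4 late lin+ sets (80.9% to 95.2%) lie above both day 0 lin+ sets (63.8% and 47.8%), and H2ac23 shows no such separation.

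Within a set, histone reads were concentrated in few cells. The 3 highest cells held 31.4% to 70.7% of a set's histone sum, and in the highest cell of all histones made up 5.80% of the reads. In 29 cells the sum reached 10000 CPM. Of these, 21 were of the first batch and 21 from wounds, and all 29 carried the deposited identity IFE-B, the basal layer of the interfollicular epidermis. Among all 684 cells, 222 were of the first batch and 373 were IFE-B. Unwounded skin gave 93 lin+ and 95 lin- cells and wounds the rest. The count from wounds is therefore near the share of wound cells among all cells. H2A genes made up a median of 83.6% of the histone reads of the 29 cells. Mki67 or Top2a, genes of dividing cells, reached 10 CPM in 24 of the 29.

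Of the 29 cells, 15 were the whole of cluster 5 of the deposited annotation. This cluster held first-batch cells only, 5 of lin+ day 9, 6 of lin- day 9, 1 of lin+ day 0 and 3 of lin- day 0, with a median histone sum of 31947 CPM. By the methods, clusters were drawn from selected variable genes, and which histone genes were among them is not known here. The histone sum of cluster 5 is therefore a description. Without cluster 5 the mean of cell values, before scaling between sets, was 2199 in place of 5643 CPM in first-batch lin+ cells at day 9, and 3523 in place of 11520 in lin- cells. The first-batch day 9 sets were then still above the day 11 sets of that batch (895 in lin+ and 613 in lin- cells). They lay below its day 0 set in lin+ cells (2717) and above it in lin- cells (1524).

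**Figure D5:**
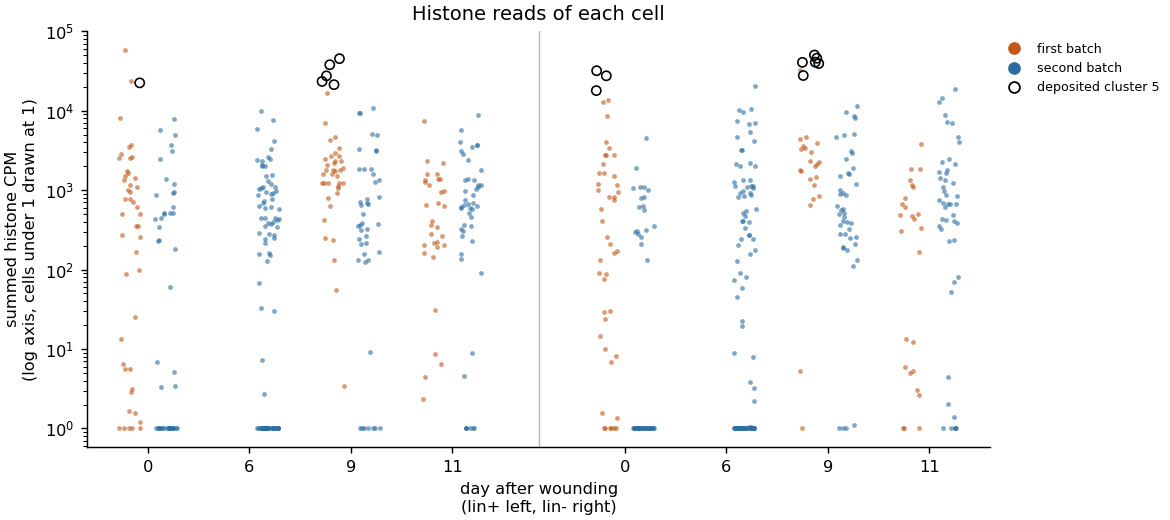
Summed histone CPM of each of the 684 cells (log axis, cells under 1 drawn at 1), by day after wounding, with lin+ left and lin- right of the line, colours for the batches and open circles for the 15 cells of deposited cluster 5. The highest values, up to 57996 CPM, are first-batch cells, and many day 0 and day 6 cells lie at the floor.

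The classes did not appear evenly within a cell. No class reached 100 CPM in 25.2% of first-batch and 38.5% of second-batch cells, and all 5 classes did in 8.56% and 1.52%. Where a cell reached 100 CPM in sum, H2A was the highest class in 67 of 168 first-batch and 115 of 289 second-batch cells, and H2B in 44 of 168 and 117 of 289. Rank correlations between classes across the cells of a set had medians of 0.187 to 0.41 over the first-batch sets and 0.169 to 0.409 over the second-batch sets. These are descriptions across cells that share a library, depth and paralogous reads. In cells with H2A at 100 CPM the H2A sum was a median of 3.02 times its highest member in the first batch and 2.38 times in the second. For H1 it was 1.06 and 1.00 times, so 1 gene made up most of H1 in a cell.

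Cells with many histone reads also showed genes of the cell cycle. Cells at 1000 CPM or above (106 in the first batch, 123 in the second) were set beside cells under 100 (54 and 173), within each batch. Mki67 reached 10 CPM in 27.4% of high and 1.85% of low cells of the first batch, and in 43.1% and 0.58% of the second. Top2a, the topoisomerase of mitotic chromosomes, did so in 24.5% and 3.70%, and in 40.7% and 4.05%. H2az1, a replacement H2A made throughout the cycle, did so in 79.2% and 27.8%, and in 78.0% and 44.5%. Pcna, the clamp of DNA polymerase, was nearer between the groups, at 44.3% and 20.4% in the first batch and 46.3% and 24.9% in the second. Mcm5, a subunit of the replicative helicase, reached it in 17.0% and 13.0% in the first batch and 21.1% and 1.73% in the second, and Slbp in 24.5% and 13.0%, and 48.0% and 26.0%. High cells showed a median of 2668 genes in the first batch and 3055 in the second, and low cells 1666 and 1864, and the part of this difference was not tested. Across the cells of a set the histone sum had a median rank correlation of 0.43 with the summed mitosis list over the 14 sets, 0.41 with the replacement histones, 0.32 with the number of genes and 0.16 with the DNA replication list. For H2bc4 alone the values were 0.17 with the mitosis list and 0.04 with DNA replication. These are descriptions with no test.

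At the level of sets none of these genes passed in a comparison. In late wounds against day 0 the log2 fold change of Mki67 was -0.04 ± 0.92 in lin+ and -0.58 ± 0.92 in lin- cells (limma, adjusted p = 0.995 and 0.803). H2az1 was at 1.28 ± 0.62 (adjusted p = 0.432) and 1.00 ± 0.62 (adjusted p = 0.469), Mcm5 at 1.24 ± 1.26 and 2.22 ± 1.26, Pcna at 0.09 ± 0.78 and 0.87 ± 0.78, Slbp at -0.13 ± 0.75 and 0.10 ± 0.75, and Top2a at 0.36 ± 1.02 and -0.11 ± 1.02, lin+ before lin-. Of the 6 fixed lists, 0 genes passed in any comparison: 10 replacement histone, 14 histone mRNA transcription and processing, 15 histone chaperone, 36 DNA replication, 12 G1/S cyclin and E2F and 22 mitosis genes were tested. In late lin+ cells against day 0 their median log2 fold changes were 0.29, 0.42, 0.11, 0.52, 0.07 and 1.00 in that order, against 0.18 over all genes, and in lin- cells 0.63, 0.57, 0.10, 0.70, 0.47 and 0.50, against 0.14. Unadjusted p values under 0.05 numbered 3, 0, 1, 2, 1 and 3 in lin+ cells, where 11.9% of all genes had one, and 0, 1, 2, 4, 2 and 0 in lin- cells, where 15.0% did.

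By deposited identity, a histone sum of 100 CPM was reached by 65.7% of IFE-B cells (245 of 373), 61.2% of outer bulge cells (OB, 74 of 121) and 73.0% of upper hair follicle cells of type uHF-I (84 of 115). It was reached by 73.3% of uHF-II (11 of 15), 55.6% of uHF-III (15 of 27) and 95.7% of sebaceous gland cells (SG, 22 of 23, exact 95% interval 78.1% to 99.9%). The SG cells had a median of 3411 genes, more than any other identity. Within sets holding at least 5 cells of both, the IFE-B share was below that of uHF-I in 6 of 8 sets, with a median difference of -8.89 percentage points, and above that of OB in 5 of 9. Over all days IFE-B cells averaged 3236 CPM and uHF-I cells 842, while their medians were 502 and 444. Among IFE-B cells alone, the late share was 88.6% (78 of 88) and the day 0 share 56.8% (25 of 44) in lin+ cells, and the late share was higher in 4 of 4 within-batch pairs. In lin- IFE-B cells the values were 82.2% (60 of 73) and 47.8% (32 of 67), higher in 3 of 4 pairs. uHF-I cells of the Gata6 lineage were at 55.9% at day 0 (19 of 34), 61.5% at day 6 (16 of 26) and 94.4% in late wounds (34 of 36).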

How the data were processed

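Single keratinocytes were profiled by Smart-seq2. The submitters' processing notes name Trimmomatic (0.27), STAR (2.2), featureCounts, Seurat (3.2.2) and the build GRCm38 or mm10. For the first batch (222 cells) the authors deposited whole-number read counts per gene, and for the second (462 cells) they deposited RPKM values, in 1 table with an annotation of cells. The planned unit was the same in both batches. As low RPKM values were whole multiples of the value of 1 read (99.99% of those under 200 reads within 0.02 of a whole number), second-batch reads were recovered, and reads scaled to the cell total were used in both batches, with the deposited values as an added alternative. Symbols of 319 genes were merged between the batches' annotations. A further 5 older symbols matched in the first batch only (4.36% of its histone reads) and were left out. The number of other per-sample columns not used was 0.

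Cells of a set were averaged, put on a common scale in each batch with median-of-ratios factors (0.901 to 1.16) and tested as log2(value + 1) with limma (3.58.1, R 4.3.3; trend, moderated variances) over 11197 genes with at least 10 CPM in at least 2 of the 14 sets, with Benjamini-Hochberg adjustment at 0.05. A log2 fold change on this scale understates the change of low genes. Days were compared with the batch as a term, lineages with the mouse set as a block, as both lineages of a set share their mice. edgeR (4.0.16, quasi-likelihood) was run on summed reads. Class sums were fitted with the same terms and carry no p, and shares of cells carry exact binomial intervals (scipy 1.17.1). The tests were tried on simulated data with known changes. Alternatives were the scaling, the pseudocount, the filter, the block, cell subsets and each mouse set left out.

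The histone genes and lists were chosen with earlier results of these data known. Genes named are the 3 of each class highest per length in the second batch, those passing in any comparison, the 2 at each end of the late fold changes of each lineage, and Mki67, Top2a, Pcna, Mcm5, Slbp and H2az1. H2ac19, H2ac20, H4c1, H1f1 and those listed by direction were named after their values were seen. No doublet removal was applied to these plate-sorted cells.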

Additional observations from a re-analysis of the deposited data

Results flagged for a closer look

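Among 22 groups of 4 or 5 sets, 6 had a set whose gap to its nearest neighbour was large for the range of its group. Chance gives such a gap in about 1 of 20 groups if values are normally spread. These sums were compared in CPM, not on the log scale of the fits, and they share cells and mouse sets. The count of 6 is therefore not set against that rate. All 6 were first-batch day 9 sets. In late lin+ wounds it was the sum over all 62 genes, at 5784 CPM, with the other 3 late sets at 798 to 1499. In late lin- wounds it was the sum over all genes, at 11039 CPM (others 568 to 1988), and the sums of H1 at 488 (others 79.0 to 94.4), H2A at 7978 (others 117 to 1334), H3 at 677 (others 15.3 to 31.9) and H4 at 785 (others 29.6 to 61.9). Cluster 5 of the deposited annotation contributed 5 cells to the lin+ and 6 to the lin- set.

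For H3c4 the direction of all pairs differed between the lineages: it was lower in late wounds than at day 0 in 4 of 4 pairs of lin+ sets and higher in 4 of 4 pairs of lin- sets, but 2 of the lin- pairs compare 0.12 and 0.47 CPM with a day 0 set at 0. The difference of the late effects was -3.44 on the log2 scale and did not pass (limma, adjusted p = 0.53, or 0.501 with the mouse set as a block).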

How the results depend on the processing

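Under the alternatives, 879 recomputed values kept their direction and their side of the threshold or moved by less than the replicate spread, and 57 moved further. All values below are log2 differences unless said otherwise, with the main value in brackets, and the cause was not tested. The largest moves came from the median over cells in place of the mean. H2A reached 100 CPM in 35.5% of day 0 and 57.0% of late lin+ cells, and H2B in 22.6% and 55.8%. The median cell at day 0 was thus under 100 CPM for both classes. Log2 differences between such low medians are not read as the size of a change. In late wounds against day 0 the median gave H1 4.14 (0.30), H2A 5.28 (-0.67) and H2B 5.42 (0.69) in lin+ cells, and H1 1.74 (0.22), H2A 4.00 (0.77), H2B 6.19 (1.31) and H4 2.03 (0.05) in lin- cells. In late wounds against day 6 it gave H1 2.93 (0.60), H2A 6.65 (0.44), H2B 6.82 (0.08) and H3 -0.58 (1.28) in lin+ cells, and H1 0.81 (-0.68), H2A 5.80 (-0.35), H2B 7.26 (1.22), H3 1.15 (-1.01) and H4 0.78 (-1.77) in lin- cells. At day 6 against day 0 it gave H1 1.21 (-0.30), H2B -1.40 (0.61) and H3 0.58 (-1.91) in lin+ cells, and H2A -1.80 (1.12) and H2B -1.07 (0.09) in lin- cells. For lin+ against lin- it gave H1 1.69 (0.35) and H2A 0.68 (-0.64) in wounds and H1 -0.28 (0.53) and H2A -0.43 (0.96) in unwounded skin, and for the difference of the late effects H1 2.40 (0.08) and H2A 1.28 (-1.44). IFE-B cells alone gave H1 -1.67 (-0.30) and H3 0.22 (-1.91) at day 6 against day 0 in lin+ cells, H3 3.45 (1.59) in lin- cells, H3 1.21 (-0.63) in late lin+ wounds against day 0, and H1 1.29 (0.53) and H2B 0.60 (0.21) between lineages in unwounded skin. With no filter on low genes 1 histone gene, H1f1, passed in each of the day 6 against day 0 and late against day 6 comparisons of both lineages (0). Counting cells at 1000 CPM gave 26.9% in day 0, 21.5% in day 6 and 44.9% in late lin+ cells (55.9%, 55.9% and 85.5% at 100 CPM), and 24.2%, 25.8% and 43.5% in lin- cells (50.5%, 49.5% and 81.4%).

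The labels' replicate number coincides with the batch, which pairs the sets of days 0, 9 and 11, so the tests of days carry it as a replicate block. With no replicate block 0 histone genes passed in each comparison, and H4 moved to -1.11 (0.63) at day 6 against day 0 in lin+ and 0.074 (1.82) in lin- cells, and to 2.01 (0.26) in late wounds against day 6 in lin+ and -0.021 (-1.77) in lin- cells. Leaving out 1 mouse set at a time, H1 ranged from -0.87 to 1.30 and H2B from 0.45 to 2.15 in late lin- wounds against day 0, H1 from -0.45 to 1.70 and H2B from -1.01 to 0.67 at day 6 against day 0 in lin- cells, H2B from -0.40 to 1.10 in lin+ cells, and H2A from 0.038 to 1.88 between lineages in unwounded skin. The number of histone genes passing in late lin- wounds ranged from 0 to 2. Chosen after seeing the data were the deposited values without recovery of reads, cells with at least 100000 reads, the highest gene of each class, the 5 older symbols, thinning, sums without H2bc4 and the mouse set as a block for the difference of the late effects. With 1 set per lineage at day 6 and 2 at day 0, differences within the standard errors given, and some well beyond them, were not detectable. H2bc4 in late lin- wounds against day 0, at 1.49 ± 0.54, did not pass (limma, adjusted p = 0.227). A gene that did not pass is not shown to be unchanged.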
